A study of Mus musculus with 6 samples.

Results

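Long non-coding RNAs are transcripts of a size like that of messenger RNAs that are not annotated to make a protein. The members described here were chosen by a rule on annotation and level. A gene had to carry 1 of 6 biotypes (lincRNA, antisense, lncRNA, bidirectional_promoter_lncRNA, sense_intronic or processed_transcript), and it had to reach 2 FPKM in at least 3 of the 6 libraries. FPKM counts the fragments on a gene for each kilobase of its length, set against the size of the library. Genes named Snhg, Gas5, Zfas1 and Epb41l4aos, which host small nucleolar RNAs, were left out, and this removed 11 genes that passed the bar. The name alone decided this, so other hosts of small nucleolar RNAs may remain among the members. The rule kept 130 of the 54532 genes in the table: 61 lincRNA, 36 antisense, 27 processed_transcript, 4 sense_intronic and 2 bidirectional_promoter_lncRNA genes. The measured level itself therefore chose the members. At the edge of the rule, 37 members reached the bar in exactly 3 libraries, with a median mean level of 2.11 FPKM, and 22 genes just outside reached it in 2 libraries, with a median of 1.57 FPKM.

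The libraries come from thioglycollate-elicited peritoneal macrophages of mice, given interferon-γ (2 ng/mL) and lipopolysaccharide (10 ng/mL) for 8 h, a pair of stimuli that drives inflammatory activation. The 3 control libraries are called shControl in one label and WT in another, and the 3 SAHH-KO libraries are called SAHH-KO in one and SAHH knockdown in another. All libraries share the stimuli, and no unstimulated library was analysed here. The sources used here do not give the strain, sex or age of the mice, any pooling of animals, how the enzyme was lowered, or whether replicates were separate animals or cultures. The p-values below therefore measure spread between samples that may be technical replicates. Ahcy, the gene of S-adenosylhomocysteine hydrolase (SAHH), stood between 22.6 and 25.8 FPKM in control and between 5.50 and 6.23 FPKM in SAHH-KO. Assigned reads per library ranged from 15540442 to 17748745, and 3 reads on a gene of 1 kb were worth 0.168 to 0.197 FPKM, which covers counting error only. Of 8 macrophage markers 7 were tested, and 4 were higher in SAHH-KO (3 higher and 1 lower under TPM and assigned-read scaling), beside 26.4% of all genes higher, while Mertk was near 0. Of 4 markers of resident large peritoneal macrophages Gata6 and Timd4 were at 0, and Icam2, the only 1 tested, went from 1.60 to 0.861 FPKM (limma adjusted p = 0.0224). The summed FPKM of the marker lists of B cells, T and NK cells, neutrophils, eosinophils, mast cells, fibroblasts, dendritic cells and erythroid cells was at most 0.63 in any library. In bulk samples, fewer cells of a type and less RNA per cell cannot be told apart.

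As background, some long non-coding RNAs build structures in the nucleus, some are cut into microRNAs, and many others are made beside or across a protein-coding gene, from the opposite strand or from a shared promoter region. Macrophages change the level of many of them when bacterial products or interferons are sensed. Of the 130 members 104 carry a number or clone name (Gm, Rik or a clone) and 26 have another symbol. The median of their mean levels was 3.66 FPKM, and 32 members reached 10 FPKM in the mean of their higher group. All 130 have the same start and end in the GENCODE M21 annotation of GRCm38, with a median length of 1439.5 bases, and 20 have a single exon in the longest transcript.

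The label did not hold for every member. RefSeq (GRCm38.p6) lists 71 members as lncRNA, 1 as a pseudogene, 1 as a transcribed pseudogene and 10 as protein-coding, and 47 had no entry that matched. The 10 are Spata5l1, Tmem134, Gm39469, Zswim6, Ptpmt1, Tmem250-ps, Cct6a, Ifi30, Lsmem2 and 1810058I24Rik. Ifi30, which encodes a thiol reductase of lysosomal antigen processing, had the highest mean of all members (174 FPKM), and Cct6a encodes a chaperonin subunit. In 7 members at least 25% of the 50-base words occur in another gene, so that their reads may be split between copies. Exon bases were shared with exons of a coding gene in 36 members, and the sources used here do not say whether strand was used in counting.

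More members were higher than lower in SAHH-KO. Of the 101 members that reached the bar in libraries of both groups, 40 were higher, 20 lower and 41 did not pass the test (limma, Benjamini-Hochberg adjusted p under 0.05 over 10362 genes). Together 59.4% were called, against 53.3% of all genes tested, of which 26.4% were higher and 26.8% lower. The share called thus lay near that of all genes. The bars differ, though: all genes were taken at 1 FPKM, and genes that reached this in 1 group only were kept among them. Groups did not overlap in 65 of the 101, against 62.3% of all genes. The split rested in part on how libraries were scaled: TPM scaling gave 32 higher against 31 lower, and assigned-read scaling 34 against 31. The log2 median over every gene in the fit shifts by -0.15 and -0.14 under these. The median log2 difference (SAHH-KO minus control, on log2(FPKM + 1)) was 0.13 over the 101 members and -0.01 over all genes, and the median absolute difference was 0.44 against 0.32.

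The other 29 members reached 2 FPKM in libraries of 1 group only, 19 in SAHH-KO and 10 in control. They had to differ by the rule, so their values are given with no test.

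**Figure D1:**
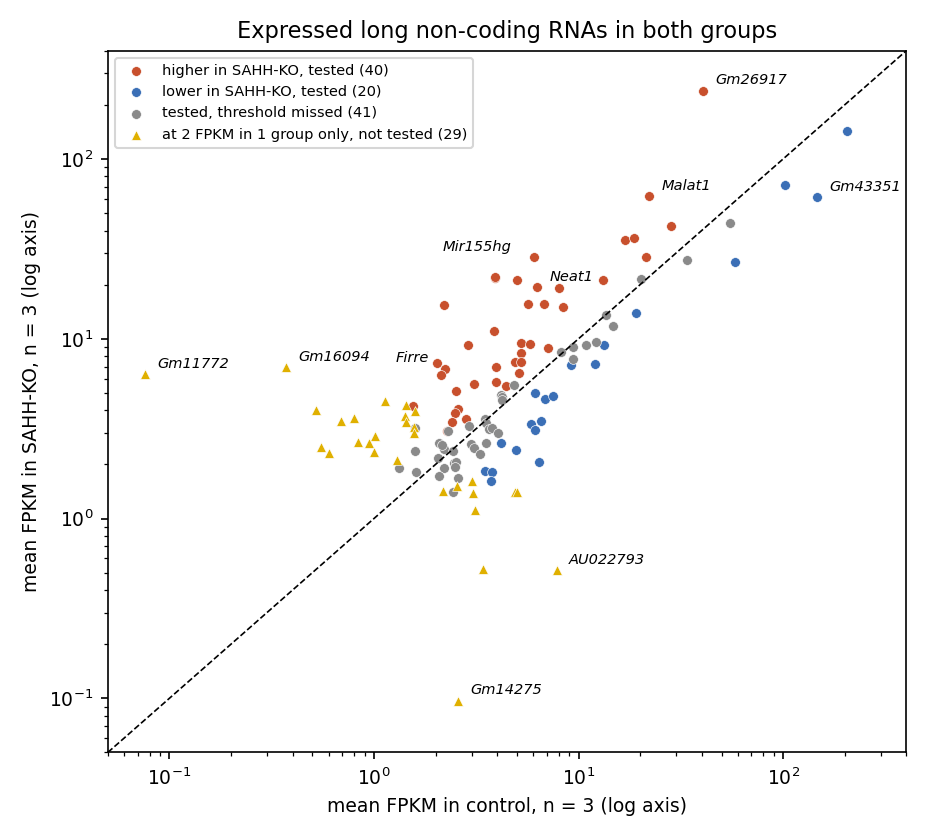
Mean FPKM of each of the 130 members in control (x axis) and SAHH-KO (y axis), both log axes, with the line of equal values dashed; colours mark members tested as higher (40), lower (20) or past neither side (41), and triangles the 29 members at 2 FPKM in 1 group only. Gm26917 and Malat1 lie high above the line, and Gm43351 lies below it among the abundant members.

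Taken as a share of all assigned reads, the 130 members held 0.268% ± 0.00552 (SD, n = 3) in control and 0.376% ± 0.00430 in the SAHH-KO libraries. A single gene made up much of that rise. Without Gm26917 the shares were 0.253% ± 0.00633 and 0.301% ± 0.00240, and the groups still did not overlap, with 0.247% to 0.260% in control and 0.298% to 0.302% in SAHH-KO. That remainder holds Malat1, with 7876 reads over the control libraries and 20616 over the SAHH-KO libraries, and Neat1, with 6607 and 19068. The share without these RNAs was not computed, so a rise of the other members is not shown. All shares include the 19 members at the bar in SAHH-KO only and the 10 in control only. Gm26917 (ENSMUSG00000097971, lincRNA, chromosome 17, bases 39843013 to 39846341, plus strand, GRCm38) read 54.8, 25.5 and 41.0 FPKM in control and 246, 225 and 249 in SAHH-KO. Its mean rose 5.93-fold, with a log2 difference of 2.60 (SE 0.229, limma adjusted p = 4.09e-05). The gene ends beside CT010467.1, a record annotated as ribosomal RNA, which went the other way: 237, 227 and 286 FPKM in control and 184, 113 and 140 in SAHH-KO (log2 difference -0.79, limma adjusted p = 0.00466). All genes of the rRNA biotype held 0.0657% ± 0.00891 of reads in control and 0.0344% ± 0.00792 in the SAHH-KO libraries. Among the other names kept with Gm26917 as signs of ribosomal RNA in a library, Gm42418 and AY036118 were listed at 0 in every library and Gm37357 was near 0. The part of library preparation in the Gm26917 values was not tested.

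The list of nuclear architecture RNAs has 11 names in the table, of which 5 were tested. Of these 4 rose and 1 fell, in the same numbers under TPM and assigned-read scaling, beside 26.4% of all genes higher and 26.8% lower. The rises counted include 2900097C17Rik, a cytoplasmic RNA that was placed on this list. Neat1, the scaffold of the nuclear bodies called paraspeckles, read 7.88, 5.49 and 5.37 FPKM in control and 19.4, 18.99 and 19.9 in SAHH-KO. Malat1, an abundant RNA of nuclear speckles, read 25.8, 22.4 and 18.4 FPKM in control and 68.4, 54.9 and 63.6 in SAHH-KO. For both RNAs every SAHH-KO library lay more than 2-fold above every control library. Neat1 rose 3.11-fold (6.25 ± 1.42 to 19.4 ± 0.481 FPKM, log2 difference 1.51, SE 0.130, limma adjusted p = 3.57e-05) and Malat1 2.81-fold (22.2 ± 3.73 to 62.3 ± 6.87 FPKM, log2 difference 1.46, SE 0.133, limma adjusted p = 5.04e-05).

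Both genes lie on the minus strand of chromosome 19 (GRCm38), Malat1 (ENSMUSG00000092341) at bases 5795690 to 5802672 and Neat1 (ENSMUSG00000092274) at 5824708 to 5845478, each annotated as a lincRNA with a single exon in the longest transcript. Frmd8, the coding gene 4224 bases from Neat1, stood at 10.6 ± 1.84 and 9.26 ± 0.958 FPKM and did not pass the test (limma adjusted p = 0.274). The difference between Neat1 and Frmd8, taken within each library, rose by 1.69 (limma over 177 pairs, adjusted p = 1.08e-05).

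Firre, an X-linked RNA that anchors chromosome regions in the nucleus (ENSMUSG00000085396, processed_transcript, chromosome X, bases 50555744 to 50635321, minus strand), read 2.72, 1.80 and 2.18 FPKM in control and 8.14, 5.77 and 6.53 in SAHH-KO. It rose 3.05-fold (log2 difference 1.27, SE 0.143, limma adjusted p = 0.000161), with no overlap between groups. 2900097C17Rik, known as Norad, a cytoplasmic RNA that binds Pumilio proteins, rose less, from 21.3 ± 1.23 to 28.6 ± 0.763 FPKM (log2 difference 0.41, limma adjusted p = 0.00239). It shares 39.5% of its 50-base words with 1 other gene, Gm7292, a member that stood at 4.44 and 5.45 FPKM. Tug1, a nuclear RNA made antisense to Morc2a, was the lower one: 8.28, 10.2 and 8.96 FPKM in control and 6.36, 7.97 and 7.13 in SAHH-KO. Its log2 difference was -0.32 (SE 0.108, limma adjusted p = 0.0365). The Tug1 call was lost without any 1 of control replicates 2 and 3 and SAHH-KO replicates 1 and 3 (limma adjusted p between 0.0841 and 0.122) and with no filter on low genes (0.0890). Of the other names on the list, Jpx and Kcnq1ot1 stayed under 1 FPKM, and Meg3 and Tsix were listed at 0.

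Genes for proteins of the paraspeckle moved in both directions. Of 10 tested, Hnrnph3 was higher (3.39 to 5.61 FPKM), Sfpq, Rbm14 and Tardbp were lower, and 6 did not pass, among them Nono (70.2 ± 3.19 and 69.9 ± 3.58 FPKM, limma adjusted p = 0.956). Sfpq, whose protein is a core of the paraspeckle, went from 65.7 ± 3.75 to 46.8 ± 8.83 FPKM (log2 difference -0.49, limma adjusted p = 0.0131). Of 12 genes for nuclear RNA decay and for processing of such transcripts, 2 were higher (Rbm7 and Xrn2) and 5 lower: Exosc10 and Dis3, nucleases of the RNA exosome, Skiv2l2, its helicase, Zfc3h1 and Srrt. Dis3 fell from 10.4 ± 1.24 to 5.98 ± 0.496 FPKM (log2 difference -0.71, limma adjusted p = 0.000713). In the same fit 26.4% of all genes were higher and 26.8% lower, which is near the share lower on the paraspeckle list. With TPM scaling 8 genes of the decay list were lower and none was higher, and the paraspeckle list stood at 4 and 1. That scaling shifts the log2 median over all genes by -0.15, and the share of all genes lower under it is not given here. On the list of RNAs linked to p53 and MYC only Neat1 was tested. Trp53cor1, a p53-induced RNA known as lincRNA-p21, was under the bar, with 8 reads over the control libraries and 99 over the SAHH-KO libraries.

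**Figure D2:**
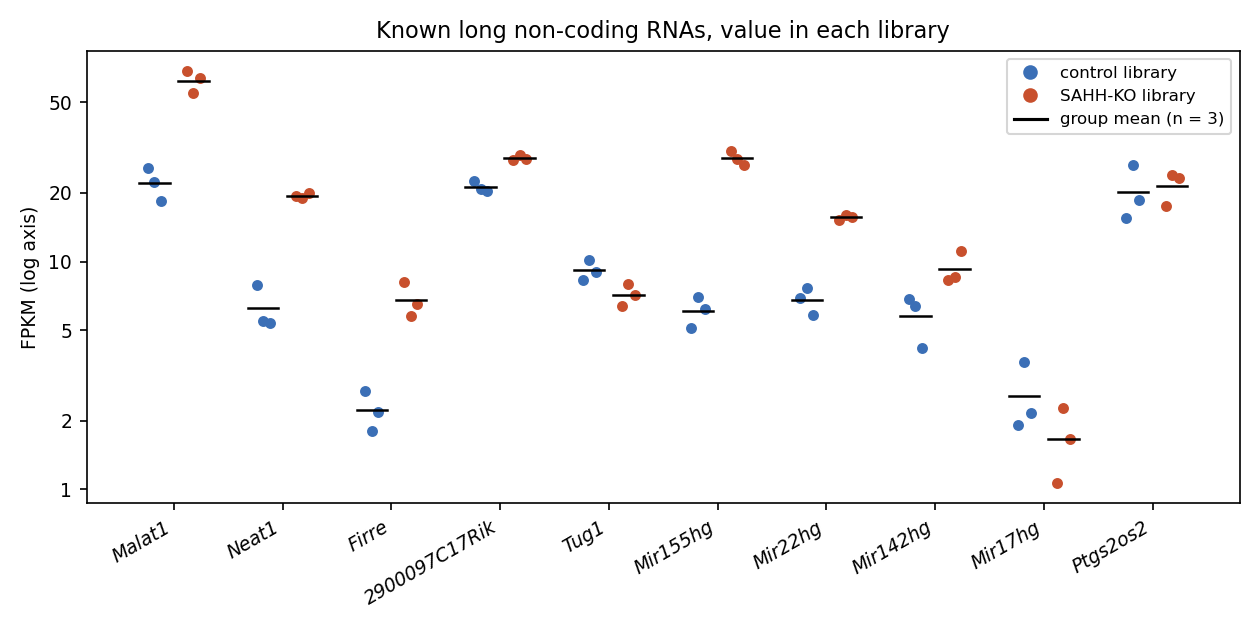
FPKM (log axis) of 10 long non-coding RNAs with known roles, a point for each of 3 control and 3 SAHH-KO libraries and a bar at each group mean. The groups are apart for Malat1, Neat1, Firre, 2900097C17Rik, Tug1, Mir155hg, Mir22hg and Mir142hg, and they overlap for Mir17hg and Ptgs2os2.

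Precursors of microRNAs formed the next group. Of 4 tested host genes 3 rose and none fell, and 2 rose with TPM scaling, beside 26.4% of all genes higher and 26.8% lower in the fit reported. A microRNA pairs with target messages chiefly through its seed, bases 2 to 8 of the mature strand, so the mature strands within the 3 hosts that rose, and the strands of Mir17hg that share a seed, are shown from RefSeq (GRCm38.p6), 5′ to 3′, with the seed in capitals:
miR-155-5p: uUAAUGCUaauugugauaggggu
miR-155-3p: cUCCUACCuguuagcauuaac
miR-22-5p: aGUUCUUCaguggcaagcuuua
miR-22-3p: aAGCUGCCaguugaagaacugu
miR-142a-5p: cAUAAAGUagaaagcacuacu
miR-142a-3p: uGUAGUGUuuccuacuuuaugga
miR-17-5p: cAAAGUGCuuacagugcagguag
miR-20a-5p: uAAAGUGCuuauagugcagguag
miR-19a-3p: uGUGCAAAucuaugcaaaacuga
miR-19b-3p: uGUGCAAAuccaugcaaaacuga

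The seeds of the 3 rising hosts are all different, while miR-17-5p and miR-20a-5p share AAAGUGC and miR-19a-3p and miR-19b-3p share GUGCAAA. Mature microRNAs were not measured, and the hairpin genes were listed at 0 in every library, so the values below are of the host transcripts.

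Mir155hg, the precursor of miR-155, a microRNA induced when macrophages sense bacterial products, was the host that rose most. It read 5.13, 6.98 and 6.17 FPKM in control and 30.5, 28.3 and 26.5 in SAHH-KO, with a wide gap between groups. The rise was 4.67-fold (6.09 ± 0.931 to 28.5 ± 1.99 FPKM, log2 difference 2.06, SE 0.112, limma adjusted p = 3.46e-06). The gene (ENSMUSG00000097418, lincRNA) spans bases 84703167 to 84715245 on the plus strand of chromosome 16, with the sequence of miR-155-5p at 84714143 to 84714165. Mrpl39, a mitochondrial ribosomal protein gene 2331 bases away, stood at 25.1 ± 2.22 and 26.6 ± 0.876 FPKM (limma adjusted p = 0.470), and the RNA rose against it by 1.98 (adjusted p = 2.51e-06 in the limma fit of pairs).

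Mir22hg, host of miR-22 (ENSMUSG00000085148, chromosome 11, bases 75461539 to 75466676, plus strand), read 6.89, 7.64 and 5.81 FPKM in control and 15.3, 16.0 and 15.6 in SAHH-KO. It rose 2.31-fold (log2 difference 1.10, SE 0.101, limma adjusted p = 5.03e-05), while Tlcd2, the coding gene it overlaps on the same strand, fell from 2.24 ± 0.672 to 0.884 ± 0.315 FPKM. Of the exon bases of Mir22hg 10.7% also lie on exons of a coding gene. Mir142hg, host of a microRNA made chiefly in blood cells, read 6.88, 6.35 and 4.16 FPKM in control and 8.27, 8.55 and 11.1 in SAHH-KO. Its log2 difference was 0.61 (SE 0.173, limma adjusted p = 0.0166), on 79 and 118 reads. The call was lost with TPM scaling (limma adjusted p = 0.0520), with no filter (0.0741) and without SAHH-KO replicate 3 (0.0586). Mir17hg, host of the miR-17-92 cluster that MYC drives in growing cells, read 1.93, 3.64 and 2.17 FPKM in control and 1.07, 2.27 and 1.67 in SAHH-KO, with overlap and no call (log2 difference -0.42, SE 0.212, limma adjusted p = 0.131). The other names on the list stayed under 1 FPKM.

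Of long non-coding RNAs with a described part in macrophage inflammation, 5 were in the fit. Mir155hg, Malat1 and Neat1 stand on that list too, and they are its 3 higher members, beside 26.4% of all genes higher. Ptgs2os2, known as lincRNA-Cox2, lies 50816 bases from Ptgs2, the gene of the prostaglandin-making enzyme COX-2. It read 15.5, 26.6 and 18.6 FPKM in control and 17.5, 23.9 and 23.3 in SAHH-KO. The groups overlapped, and the log2 difference of 0.11 (SE 0.192, limma adjusted p = 0.669) did not pass the test. Ptgs2 itself stood at 896 ± 83.3 and 1195 ± 158 FPKM (log2 difference 0.41, limma adjusted p = 0.0160), and the change of Ptgs2os2 against Ptgs2 was -0.30 (adjusted p = 0.143 in the limma fit of pairs). Without control replicate 1 that pair passed (-0.45, adjusted p = 0.0292). Ttc39aos1, known as lincRNA-EPS, a restrainer of immune genes in macrophages, was under the bar of the rule. It entered the fit only through the control libraries, so its values are given with no test. It read 1.81, 1.56 and 2.54 FPKM in control and 0.350, 0.0766 and 0.303 in SAHH-KO, on 87 and 10 reads. AW112010, Mirt2 and Gm28309 were listed at 0, and Gm14005, Gm16685, U90926, Dnmt3aos, Ptgs2os and Lncenc1 were too low to test.

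Position against the nearest coding gene was set from the annotation: 41 members overlap a coding gene on the opposite strand, 12 overlap it on the same strand, 12 face it head-to-head within 5 kb, 25 lie within 10 kb in another way and 40 lie farther away. Neighbours that were tested gave 100 pairs of a member and its nearest coding gene. For the 30 members without such a pair, 29 neighbours had means under 1 FPKM in both groups.

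On chromosome 1, A530040E14Rik and Gm16028 both run opposite C130026I21Rik, a gene of the SP100 and SP110 family region. A530040E14Rik (ENSMUSG00000072109, bases 85105946 to 85114035, plus strand) read 2.06, 2.52 and 2.05 FPKM in control and 17.1, 15.2 and 13.6 in SAHH-KO (6.94-fold, log2 difference 2.35, SE 0.108, limma adjusted p = 1.45e-06). Gm16028 (ENSMUSG00000090252, bases 85246851 to 85255465, plus strand) read 3.69, 4.46 and 3.52 against 26.1, 19.4 and 20.7 FPKM (5.68-fold, log2 difference 2.23, limma adjusted p = 4.08e-06). Their neighbour rose less, from 21.1 ± 3.66 to 55.1 ± 3.03 FPKM, and the RNAs rose against it by 0.99 and 0.88 (adjusted p = 0.000520 and 0.000994 in the limma fit of pairs). The region holds repeated copies: 36.5% of the 50-base words of A530040E14Rik and 14.6% of those of Gm16028 occur in other genes, so their reads are uncertain between copies, and the 2 pairs share a neighbour.

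Gm16094 (ENSMUSG00000090103, antisense, chromosome 1, bases 85599286 to 85599839, plus strand) lies 469 bases from Sp110, an interferon-inducible nuclear body gene, and faces it head-to-head. It read 0.839, 0.143 and 0.131 FPKM in control and 7.04, 8.00 and 5.78 in SAHH-KO, on 8 and 140 reads. Sp110 rose with it, from 3.05 ± 0.507 to 23.4 ± 0.317 FPKM (log2 difference 2.60, limma adjusted p = 6.30e-07). The log2 difference of Gm16094 was 2.56, so that RNA and neighbour moved by a like amount on the log2(FPKM + 1) scale, with a change against Sp110 of -0.03. That value turned to 1.31 with a pseudocount of 0.1 and to 0.27 without control replicate 1, the library with most Gm16094 reads among the controls.

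Gm28913 (ENSMUSG00000102055, antisense, chromosome 1, bases 131263330 to 131266749, plus strand) runs opposite Ikbke, which encodes an IκB kinase-related enzyme that acts in interferon induction. It read 5.25, 4.36 and 2.15 FPKM in control and 27.6, 17.1 and 20.5 in SAHH-KO (5.55-fold, log2 difference 2.24, SE 0.257, limma adjusted p = 0.000175). Ikbke rose from 21.6 ± 2.53 to 72.3 ± 7.95 FPKM. The change of the RNA against Ikbke, 0.55, did not pass (adjusted p = 0.0671 in the limma fit of pairs), though it passed without control replicate 2 (0.69, adjusted p = 0.0244), with a filter of 2 FPKM (adjusted p = 0.0414) and with quantile normalization (adjusted p = 0.0356). Gm28914, a second RNA opposite Ikbke, was picked after its values were seen and went from 0.803 ± 0.342 to 3.64 ± 1.11 FPKM. Exon bases shared with Ikbke or another coding gene came to 17.9% in Gm28913 and 23.8% in Gm28914.

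Gm11772 (ENSMUSG00000085501, antisense, chromosome 11, bases 120235234 to 120236122, minus strand) runs opposite Bahcc1, a chromatin reader gene, and shares no exon base with it. It had 2 reads over the control libraries and 160 over the SAHH-KO libraries, where it read 7.12, 5.31 and 6.60 FPKM. Bahcc1, which entered the fit only through the SAHH-KO libraries, went from 0.410 ± 0.235 to 3.90 ± 1.40 FPKM. Gm16161, opposite the phosphatase gene Mtmr14, spread widely: 0.618, 3.16 and 2.31 FPKM in control and 4.15, 6.80 and 11.0 in SAHH-KO (log2 difference 1.48, SE 0.383, limma adjusted p = 0.0117), on 30 and 99 reads. With no filter the Gm16161 call was lost (limma adjusted p = 0.0686). Gm15777, opposite the coenzyme Q gene Coq2, went from 0.687 ± 0.381 to 3.48 ± 0.671 FPKM. Gm11611, overlapping Srcin1 on the same strand, went from 0.522 ± 0.157 to 4.03 ± 0.907 FPKM, and Gdap10, overlapping Nampt on the same strand, from 0.948 ± 0.317 to 2.63 ± 0.169 FPKM. These 3 reached the bar in SAHH-KO only and were not tested.

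Some rises had no like change next door. Gm26809 (ENSMUSG00000097815, lincRNA, chromosome 6, bases 18844220 to 18847360, plus strand) read 4.47, 5.51 and 5.03 FPKM in control and 26.5, 18.6 and 18.5 in SAHH-KO (4.24-fold, log2 difference 1.87, SE 0.143, limma adjusted p = 1.95e-05). Lsm8, an RNA-binding protein gene 1219 bases away, fell from 5.07 ± 0.228 to 3.62 ± 0.318 FPKM, and the change against it was 2.27 (adjusted p = 1.23e-05 in the limma fit of pairs). B230312C02Rik rose from 2.88 ± 0.756 to 9.25 ± 1.72 FPKM (log2 difference 1.41, limma adjusted p = 0.000217), with its nearest coding gene Gata5 listed at 0.

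Further members were picked after their values were seen. Gm13822, opposite the antiviral gene Oasl1, rose from 5.68 ± 0.582 to 15.5 ± 2.67 FPKM (log2 difference 1.30, limma adjusted p = 7.15e-05), and Oasl1 rose more (155 ± 19.5 to 567 ± 24.7 FPKM), a change of the RNA against the gene of -0.57 (adjusted p = 0.00929 in the limma fit of pairs). 2500002B13Rik, head-to-head with the histone deacetylase complex gene Sap30 at 194 bases, rose from 8.07 ± 0.674 to 19.2 ± 1.45 FPKM (log2 difference 1.16, limma adjusted p = 2.43e-05), beside a rise of Sap30 from 86.5 ± 4.58 to 214 ± 14.9 FPKM. Gm20559, 26129 bases from the antiviral gene Samd9l, rose from 16.9 ± 2.95 to 35.3 ± 1.502 FPKM, Gm16712, opposite the cytokine subunit gene Ebi3, from 2.53 ± 0.585 to 5.09 ± 0.594 FPKM, and Gm20234, opposite Slfn2, went from 1.14 ± 0.437 to 4.51 ± 0.309 FPKM.

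**Figure D3:**
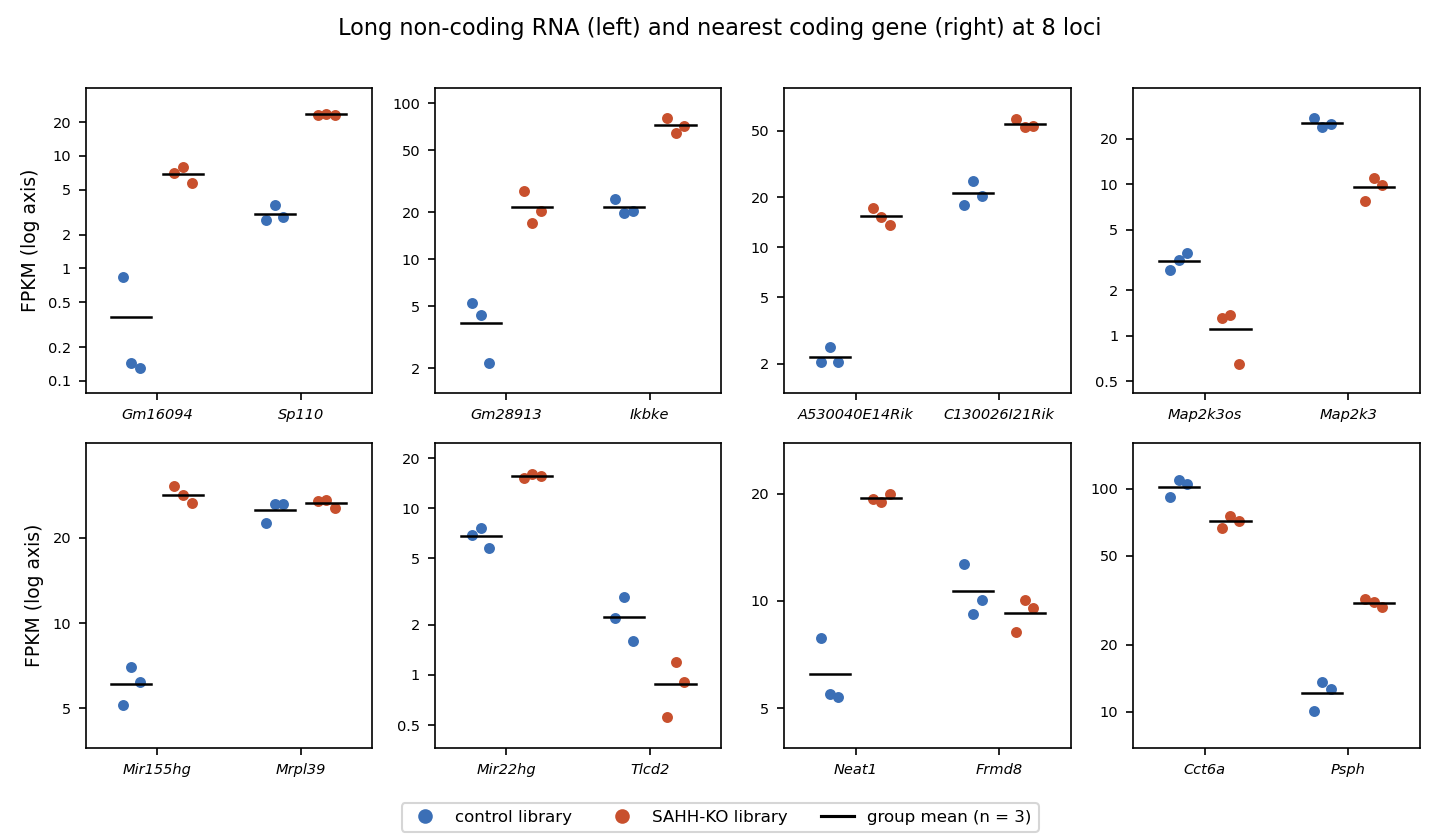
FPKM (log axis, own range per panel) of a long non-coding RNA and its nearest coding gene at 8 loci, a point for each of 3 control and 3 SAHH-KO libraries and a bar at each group mean. Gm16094, Gm28913 and A530040E14Rik are higher in SAHH-KO with their neighbours, Map2k3os is lower with Map2k3, Mir155hg and Neat1 are higher beside neighbours whose groups overlap, Mir22hg is higher while Tlcd2 is lower, and Cct6a is lower while Psph is higher.

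Falls were fewer in the fit reported, though nearly as many as rises under TPM and assigned-read scaling, and they came from other loci. AU022793 (ENSMUSG00000115230, lincRNA, chromosome 15, bases 39962649 to 39967024, plus strand) read 8.46, 7.13 and 7.84 FPKM in control and 0.262, 0.668 and 0.613 in SAHH-KO, 15.2-fold lower, on 549 and 33 reads. Its nearest coding gene Lrp12, a receptor gene of the low-density lipoprotein receptor family 18655 bases away, fell from 14.4 ± 0.142 to 3.77 ± 0.0245 FPKM (log2 difference -1.69, limma adjusted p = 1.08e-06). Gm14275 had 56 reads over the control libraries and 2 over the SAHH-KO libraries. Gm11707, near the nuclear import gene Kpna2, went from 3.40 ± 1.41 to 0.527 ± 0.280 FPKM while Kpna2 fell from 72.1 ± 8.56 to 31.2 ± 5.58 FPKM. 4933432I03Rik went from 4.92 ± 1.02 to 1.40 ± 0.224 FPKM and its neighbour Kctd12 fell from 14.5 ± 0.722 to 6.44 ± 0.483 FPKM, while 4933404O12Rik went from 4.999 ± 0.204 to 1.41 ± 0.151 FPKM beside Ift22, which stood at 8.19 ± 0.483 and 7.56 ± 0.356 FPKM. Map2k3os read 2.73, 3.17 and 3.51 FPKM in control and 1.30, 1.37 and 0.654 in SAHH-KO. It faces Map2k3, the gene of a kinase that activates p38, at 166 bases, and Map2k3 fell from 25.4 ± 1.84 to 9.59 ± 1.65 FPKM (limma adjusted p = 5.50e-05). These 6 RNAs reached the bar in control only and were not tested.

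Among the tested falls, Gm43351 (ENSMUSG00000105769, lincRNA, chromosome 3, bases 130874073 to 130876824, plus strand) was the most abundant past a 2-fold change. It read 162, 151 and 127 FPKM in control and 60.5, 61.3 and 63.2 in SAHH-KO (log2 difference -1.23, SE 0.0985, limma adjusted p = 2.43e-05), and it has a counted length of 326 bases. 4930430E12Rik read 56.6, 58.0 and 60.9 against 21.2, 30.4 and 28.9 FPKM (log2 difference -1.11, limma adjusted p = 0.000191), while Sdcbp, the syntenin gene 8120 bases away, stood at 69.4 ± 12.6 and 66.9 ± 1.58 FPKM. The change against Sdcbp was -1.07 (adjusted p = 0.000997 in the limma fit of pairs). 6530402F18Rik fell from 6.42 ± 0.457 to 2.06 ± 0.724 FPKM (limma adjusted p = 0.000253). 2310043L19Rik went from 3.74 ± 1.75 to 1.62 ± 0.652 FPKM, with the lowest control library at 2.45 and the highest SAHH-KO library at 2.35 FPKM, and its call (limma adjusted p = 0.0263) was lost without control replicate 1, SAHH-KO replicate 1 or SAHH-KO replicate 3 and with no filter (adjusted p between 0.0509 and 0.114).

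RNAs opposite coding genes that did not pass the test fell as well. Brip1os fell from 6.52 ± 0.650 to 3.50 ± 0.447 FPKM (log2 difference -0.74, limma adjusted p = 0.000653), opposite Med13 (11.1 ± 1.02 and 11.2 ± 0.274 FPKM). 8030453O22Rik, opposite Dennd2a, fell from 6.12 ± 0.167 to 3.10 ± 0.290 FPKM (log2 difference -0.80, limma adjusted p = 0.000141). Peak1os fell from 11.997 ± 2.55 to 7.27 ± 1.56 FPKM (log2 difference -0.65, limma adjusted p = 0.0145, and 0.0680 with no filter). Gt(ROSA)26Sor, the RNA of the locus used to place transgenes in mice, went from 3.78 ± 1.47 to 1.81 ± 0.530 FPKM (log2 difference -0.74, limma adjusted p = 0.0278). That call was lost without control replicate 2, control replicate 3 or SAHH-KO replicate 2 and with no filter (limma adjusted p between 0.0755 and 0.117).

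Of the members that RefSeq types as protein-coding and that carry a gene symbol, Ifi30 read 208, 202 and 205 FPKM in control and 158, 139 and 134 in SAHH-KO (log2 difference -0.51, limma adjusted p = 0.00108). Cct6a fell from 102 ± 9.18 to 71.3 ± 4.64 FPKM (log2 difference -0.51, limma adjusted p = 0.00199). It overlaps Psph, the serine synthesis gene on the other strand, which rose from 12.1 ± 1.82 to 30.9 ± 1.24 FPKM, and the change of Cct6a against Psph was -1.80 (adjusted p = 6.15e-06 in the limma fit of pairs). Spata5l1 rose from 8.39 ± 1.85 to 15.1 ± 2.64 FPKM (limma adjusted p = 0.00474). Tmem134 (log2 difference 0.28, limma adjusted p = 0.0207) and Ptpmt1 (-0.24, limma adjusted p = 0.0355) passed by a narrow margin. The Tmem134 call was lost without control replicate 3 or SAHH-KO replicate 2 or 3, and with TPM or assigned-read scaling, and the Ptpmt1 call without control replicate 3 or any 1 SAHH-KO replicate. Zswim6, Tmem250-ps and Lsmem2 did not pass (limma adjusted p = 0.297, 0.109 and 0.172), nor did the pseudogene-named Ndufb1-ps (0.0920). Under both of those scalings Ndufb1-ps passed as lower (limma adjusted p = 0.0169 and 0.0170). Tmem250-ps passed as lower under both too and without SAHH-KO replicate 1 (limma adjusted p = 0.0344).

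The remaining named members changed little or were scattered. Rab10os, antisense to the vesicle transport gene Rab10, read 2.44, 2.45 and 2.33 FPKM in control and 3.36, 3.41 and 3.54 in SAHH-KO (log2 difference 0.38, limma adjusted p = 0.00510), with a like change of Rab10 (0.25, limma adjusted p = 0.0232). Dubr had a log2 difference of 0.30 (limma adjusted p = 0.0320). The Dubr call was lost without control replicate 1 or 3 or SAHH-KO replicate 2 or 3, with either of the other library scalings and with no filter (limma adjusted p between 0.0634 and 0.227). Platr16 read 0.898, 2.75 and 0.336 FPKM in control and 2.62, 0.889 and 2.25 in SAHH-KO, wholly overlapping (limma adjusted p = 0.390).

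Members and neighbours were then compared across loci. Over the 100 pairs, the log2 differences of the RNA and of its nearest coding gene went in the same direction in 70, with Pearson's r = 0.56 and Spearman's rho = 0.52. The pairs share libraries and scaling, some share reads or a neighbour, and 21 of the RNAs had to differ by the rule, so these values describe the loci and carry no p. Over the 79 pairs whose RNA reached the bar in both groups r was 0.34. By position, r was 0.93 for 11 head-to-head pairs (0.81 without the 2 pairs farthest from the median, 0.92 for the 6 with the bar in both groups) and 0.68 for 40 pairs that overlap on opposite strands. It was 0.22 for 9 pairs on the same strand, 0.08 for 20 other pairs within 10 kb and 0.65 for 20 pairs farther apart, where it fell to 0.37 without the 2 farthest pairs. Without the 2 farthest pairs r was 0.60 on the same strand and 0.21 for the other pairs within 10 kb. With the bar in both groups r was 0.002 over 7 same-strand pairs and -0.07 over 17 other pairs within 10 kb. The same-strand value thus rests on few pairs. Among opposite-strand pairs, the 10 whose RNA shares no exon base with a coding gene had an r of 0.83. Of these 10, 4 had to differ by the rule, and r was 0.75 over the other 6. Over all positions, with the bar in both groups, r was 0.20 for 49 pairs with no shared exon base. It was 0.53 for 30 pairs with shared exon bases, where shared reads cannot be told apart from a like change.

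**Figure D4:**
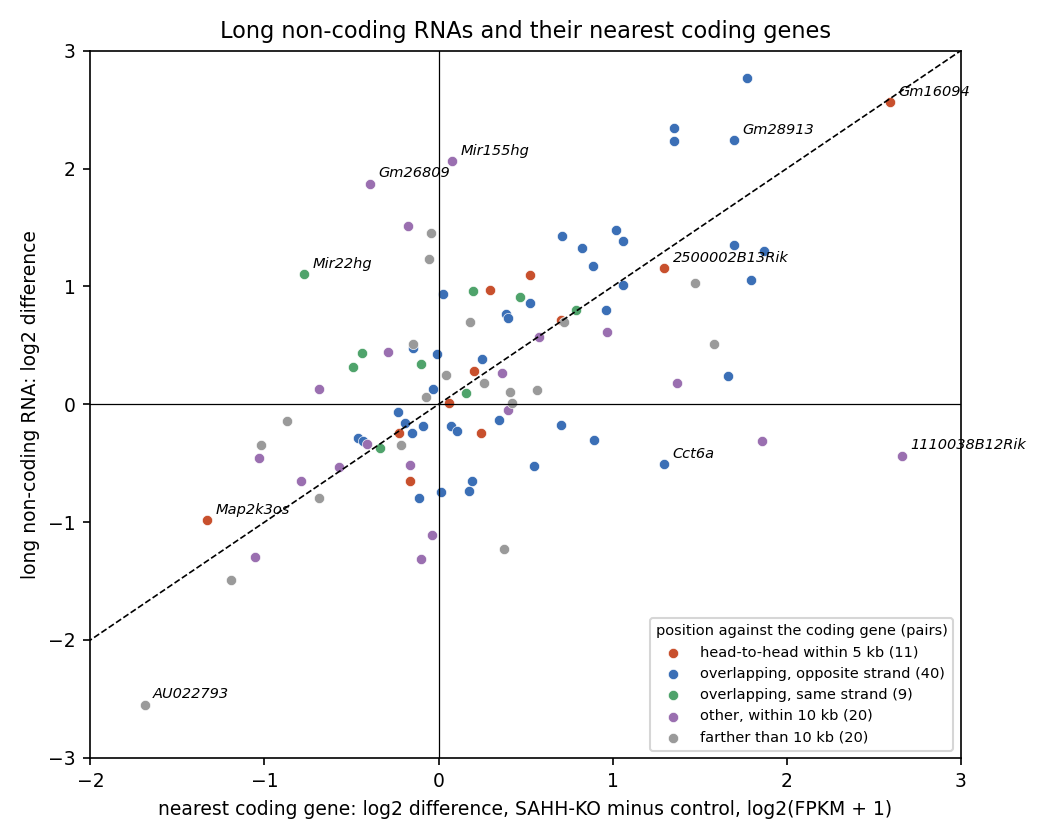
Log2 difference (SAHH-KO minus control, log2(FPKM + 1)) of the nearest coding gene (x axis) and of the long non-coding RNA (y axis) for 100 pairs, coloured by position, with equal differences dashed. Head-to-head pairs lie near the dashed line (r = 0.93 over 11 pairs), while Mir155hg and Gm26809 lie far above it and Cct6a and 1110038B12Rik far below.

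Tested within libraries, 16 of the 79 pairs had an RNA that rose against its neighbour and 18 an RNA that fell against it, together 43.0%, while 45 did not pass. Over all 177 pairs in the fit 38.4% passed, 18.6% higher and 19.8% lower, which is near the share among members. Those 177 also hold RNAs under the bar of the rule and RNAs at it in 1 group only. Of the 6 head-to-head pairs that could be tested 0 passed in limma, and 2 had an unadjusted p under 0.05, with changes between -0.49 and 0.08. Of 31 opposite-strand pairs 3 were higher (A530040E14Rik, Gm16028 and 4930579G18Rik) and 11 lower, including Gm11110 against the cytokine gene Tnfsf9 (-1.42, adjusted p = 0.00131), where the gene was higher and the RNA did not pass (limma adjusted p = 0.0716). The pair with the widest change, picked after its values were seen, was 1110038B12Rik, which fell from 19.1 ± 0.753 to 13.9 ± 0.848 FPKM at 3965 bases from the heat shock gene Hspa1b, which rose from 1.03 ± 0.121 to 11.9 ± 1.64 FPKM (-3.10, adjusted p = 5.88e-07 in the limma fit of pairs).

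Promoter sequence was examined because several of the RNAs that rose lie at interferon-inducible loci. RefSeq gave promoter windows, from 250 bases before to 50 after a start, for 67 members, 80 windows in all. A core of the interferon-stimulated response element, GAAANNGAA on either strand, was in 12 of the 80 windows (15.0%), against 8.56% of 32851 windows of all genes. The GAS element TTCNNNGAA was in 8.75% against 8.30%, AP-1 (TGANTCA) in 11.2% against 7.81%, the E-box CACGTG in 11.2% against 7.15% and the CRE TGACGTCA in 0 against 1.79%. Some of the 12 windows with the interferon element core are overlapping windows of Gm20559. Counted by member, that core was in 10 of 67. It was in 5 of 28 higher members (17.9%), 2 of 18 lower (11.1%) and 3 of 21 not called (14.3%). These groups include members that had to differ by the rule. The windows of Sp110, the neighbour of Gm16094, held no such core. A match is a run of letters, not a shown binding site, and the interferon and GAS elements can overlap.

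Windows of 3 members with the interferon element core are shown, 2 that rose (A530040E14Rik and Gm20559) and Ptgs2os2, which did not pass, on the RNA's own strand with matches to that core or to the GAS element in capitals (RefSeq, GRCm38.p6, chr1:85105843-85106142 plus strand, chr6:3346092-3346391 minus strand and chr1:150164899-150165198 minus strand):
A530040E14Rik: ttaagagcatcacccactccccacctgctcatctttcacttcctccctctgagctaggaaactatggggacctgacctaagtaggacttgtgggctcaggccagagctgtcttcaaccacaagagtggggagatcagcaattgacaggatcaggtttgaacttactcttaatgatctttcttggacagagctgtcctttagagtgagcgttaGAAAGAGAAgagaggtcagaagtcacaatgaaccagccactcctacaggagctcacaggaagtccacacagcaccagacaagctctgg
Gm20559: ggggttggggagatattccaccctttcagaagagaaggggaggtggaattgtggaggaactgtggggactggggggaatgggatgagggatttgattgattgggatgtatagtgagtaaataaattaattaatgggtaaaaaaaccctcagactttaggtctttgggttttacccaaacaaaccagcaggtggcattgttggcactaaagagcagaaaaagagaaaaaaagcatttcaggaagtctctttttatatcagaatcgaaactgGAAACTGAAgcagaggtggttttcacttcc
Ptgs2os2: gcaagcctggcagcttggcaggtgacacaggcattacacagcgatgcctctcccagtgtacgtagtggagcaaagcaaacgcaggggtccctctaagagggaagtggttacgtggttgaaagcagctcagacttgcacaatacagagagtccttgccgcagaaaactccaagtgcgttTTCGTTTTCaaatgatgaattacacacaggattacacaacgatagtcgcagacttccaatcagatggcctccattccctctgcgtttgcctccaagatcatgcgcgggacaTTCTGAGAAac

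The start in RefSeq lies 147 bases from the start in the table's annotation for A530040E14Rik, 13 for Gm20559 and 0 for Ptgs2os2. For Mir155hg, whose RefSeq window also holds the interferon element core, the starts are 9856 bases apart, so its window is not shown. Windows with the core also lay far from the table's start in Gm33370 (940 bases), Gm46224 (1417), 1810058I24Rik (4337) and Peak1os (16546). Gm33370 and 1810058I24Rik have nearer windows, at 26 and 56 bases, without the core. All of these windows are counted in the shares above.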

How the data were processed

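The members and the gene lists were chosen with earlier results of these data known. The authors deposited 1 table of FPKM values for 54532 genes and 6 libraries. Per the submitters' processing notes, FastQC, Trim Galore, STAR and featureCounts were used with GRCm38 (mm10). Versions, strand setting and the step from counts to FPKM are not given in the sources used here. FPKM times gene length gave whole reads for 100% of values within 0.01, and the library size behind the FPKM was 1.06 to 1.07 times the assigned reads in control and 0.937 to 0.960 times in SAHH-KO.

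Genes with at least 1 FPKM in at least 3 libraries (10362) were fitted with limma 3.58.1 in R 4.3.3 on log2(FPKM + 1), with eBayes and an intensity trend, no block, two-sided, with Benjamini-Hochberg adjustment over all genes, and calls at an adjusted p under 0.05. The scale understates changes of low genes. Folds are ratios of mean FPKM. The pair fit used log2(RNA + 1) minus log2(nearest coding gene + 1) in each library, over 177 pairs. The scripts were tested on simulated data.

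Named members are those with a symbol of their own, those on the lists, and, of the rest past the threshold with groups apart, the 10 that rose most and the 10 that fell most. Within groups, recovered reads differed beyond sampling noise (chi-square per degree of freedom 4.19 to 31.5). Each library was counted as 1 replicate, but that spread cannot show whether libraries came from separate animals or cultures. Count models were not run; recovered reads served for depth only. The neighbour of 1 named member is not reported here.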

Additional observations from a re-analysis of the deposited data

How the results depend on the processing

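Of the 101 tested members, the number higher lay between 31 and 40 over the settings tried, against 40 in the fit reported. The number lower was 20, and it moved to 13 with no filter on low genes and to 31 with both TPM and assigned-read scaling. Leaving out 1 library at a time gave 33 to 40 higher and 16 to 19 lower. The member pairs stood at 16 higher and 18 lower, ranging over 14 to 19 and 16 to 22 without 1 library, and at 24 and 24 when the nearest tested coding gene was taken in place of the nearest. Correlations of deviations were 0.0955, 0.101 and -0.00557 for equal replicate numbers and between -0.117 and 0.0284 for unequal ones. These values do not settle whether the replicate numbers pair the libraries. With a replicate block 37 members were higher and 25 lower, and 18 and 19 pairs. With the block, Mir17hg and Tmem250-ps passed as lower (limma adjusted p = 0.0165 and 0.0490), and the change of Gm28913 against Ikbke passed as higher (adjusted p = 0.0483 in the limma fit of pairs).

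The change of Gm16094 against Sp110 was -0.03 as reported and turned to 1.31 with a pseudocount of 0.1, 0.70 with TPM scaling, 0.0201 with assigned-read scaling, and between -0.243 and 0.268 when 1 library was left out, above 0 without control replicate 1 (0.268) and without SAHH-KO replicate 3 (0.0716). That of Map2k3os against Map2k3 turned from 0.34 to -0.0635 with a pseudocount of 0.1. The cause was not tested. A bar of 1 FPKM kept 224 members and a bar of 5 FPKM 59. Of 37 named members that were tested, 9 lost their call under at least 1 setting. Members near the bar rest on few reads, and for these depth limits what the groups can show.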
